A study of Danio rerio with 13 samples.

Results

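The samples compared here are 12 of 13 bulk RNA-seq libraries of skin from male zebrafish (AB strain, 3 months old), split by how much skeletal muscle transcript each library held. The counts of ckma, which encodes a muscle creatine kinase, were divided by the counts outside the 13 protein genes of the mitochondrial genome. The 6 samples with the highest share form the muscle-rich group, the 6 with the lowest form the muscle-poor group, and the middle sample was left out. The study itself grouped the fish by genotype at tert, the gene of the catalytic subunit of telomerase. Fish were homozygous for a nonsense allele (HOM, tert−/−, n = 3), heterozygous (HET, tert+/−, n = 5) or wild type (WT, tert+/+, n = 5), so the mutant groups carry that allele and no other treatment was applied to any group. The muscle-rich group holds 1 HOM, 3 HET and 2 WT samples, and the muscle-poor group holds 2 HOM, 1 HET and 3 WT samples. The study's methods count the samples by genotype as separate mutant and wild-type fish, and the names used here (HOM1 and so on) number them in the order of the records.

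Skeletal muscle fibres contract when myosin thick filaments slide along actin thin filaments that troponin and tropomyosin switch on with calcium. Fast fibres use their own forms of these proteins, buffer calcium with parvalbumins, and draw energy from creatine phosphate and glycolysis. Slow fibres use other myosins and troponins, store oxygen in myoglobin and respire in mitochondria. In zebrafish the trunk is mostly fast muscle, and slow fibres lie in a thin layer near the surface, under the skin. Bulk RNA cannot tell apart fewer cells of a type and less RNA per cell, which holds for every list described here.

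Total counts ran from 18580571 to 30249877 in the muscle-rich samples and from 15709310 to 30017549 in the muscle-poor samples. The mitochondrial protein genes took 24.7% to 47.3% of the counts in muscle-rich samples, against 19.9% to 56.4% in muscle-poor samples, so the groups overlapped in depth and in this share. Levels are given as scaled CPM, CPM of a library size adjusted by the trimmed mean of M-values (TMM). The level of tert was 15.7 to 37.3 scaled CPM in HOM, 14.5 to 40.4 in HET and 7.08 to 13.4 in WT samples. The muscle-rich sample WT5 stood apart in a list of liver genes, with a summed level of 54202 scaled CPM, where the next highest of all samples, the muscle-poor WT1, had 6531. Liver and smooth muscle medians and fold changes that rest on WT5 are given with and without it, apart from values within genotypes.

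The share of ckma chose the groups and is a description only. It was 0.929% in HET5, 0.783% in WT2, 0.775% in HET4, 0.723% in HOM2, 0.696% in WT5 and 0.561% in HET2, the muscle-rich samples. It was 0.269% in WT3, 0.224% in HOM3, 0.176% in WT1, 0.169% in HET1, 0.122% in HOM1 and 0.0533% in WT4, the muscle-poor samples. The sample left out, HET3, had 0.526%, just below HET2 and well above WT3, so the wide gap in the order lies under the middle sample and not above it. These shares rest on 61496 to 173371 reads of ckma per muscle-rich sample and 5311 to 44485 per muscle-poor sample.

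The other genes of 9 skeletal muscle lists took 15.3% to 23.1% of the counts outside the mitochondrial protein genes in muscle-rich samples, 13.5% in HET3 and 1.61% to 6.88% in muscle-poor samples. Ranking the samples by this sum without ckma gave the same groups. So did ckma over all counts, which uses the same ckma counts as the share that chose the groups. Per kilobase of gene length and among genes with a symbol, 13 to 20 of the 50 most abundant nuclear transcripts of each muscle-rich sample belonged to these lists, against 0 to 6 in each muscle-poor sample. The most abundant was actc1b, a sarcomeric actin, in all 6 muscle-rich samples. In muscle-poor samples it was icn, a calcium-binding protein of the fish epidermis, in 4, the keratin krt5 in WT3 and ptgdsb.1, a prostaglandin D synthase, in WT4.

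**Figure D1:**
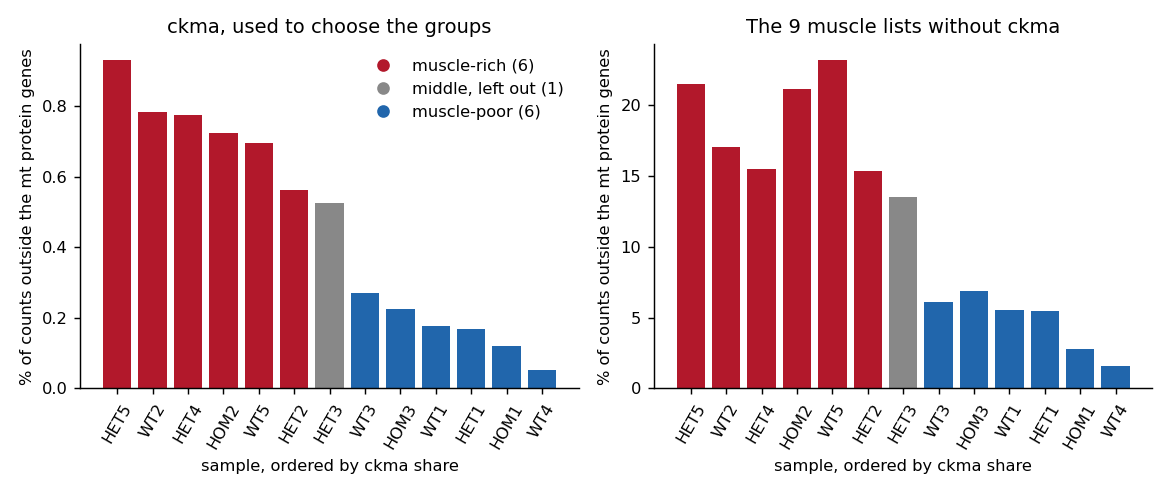
Share of counts outside the mitochondrial protein genes (y axis, percent) taken by ckma (left) and by the 9 muscle lists without ckma (right), 1 bar per sample in the order of the ckma share. The muscle lists took 15.3% to 23.1% in the 6 muscle-rich samples and 1.61% to 6.88% in the 6 muscle-poor samples, and HET3 lay nearer to the muscle-rich samples.

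Across all genes, the groups differed in genes of the muscle lists and in a larger number of genes outside these lists. A gene was called where the 6 muscle-rich samples lay all above or all below the 6 muscle-poor samples, and since ckma chose the samples from these same libraries no test was made. Of 19140 genes besides ckma, 490 (2.56%) were higher in muscle-rich samples with no overlap and 364 (1.9%) were lower. Of the 490 higher genes, 77 were in the muscle lists, and 374 also had HET3 above every muscle-poor sample. Outside the muscle lists 413 of 18919 genes (2.18%) were higher and 364 (1.92%) lower. The fitted log2 fold change, muscle-rich over muscle-poor, had a median of 0.01 over all genes, and it exceeded 1 for 2425 genes and lay under −1 for 1247.

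These counts moved with the scaling and with single libraries. With CPM of the counts outside the mitochondrial protein genes, the median of all genes moved to −0.27 and the counts became 209 higher and 1151 lower, so that 15.4% of the calls were higher, against 57.4% with TMM. Without HET2 there were 1043 higher and 576 lower, without HOM3 739 were higher, and without WT4 658 were lower.

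**Figure D2:**
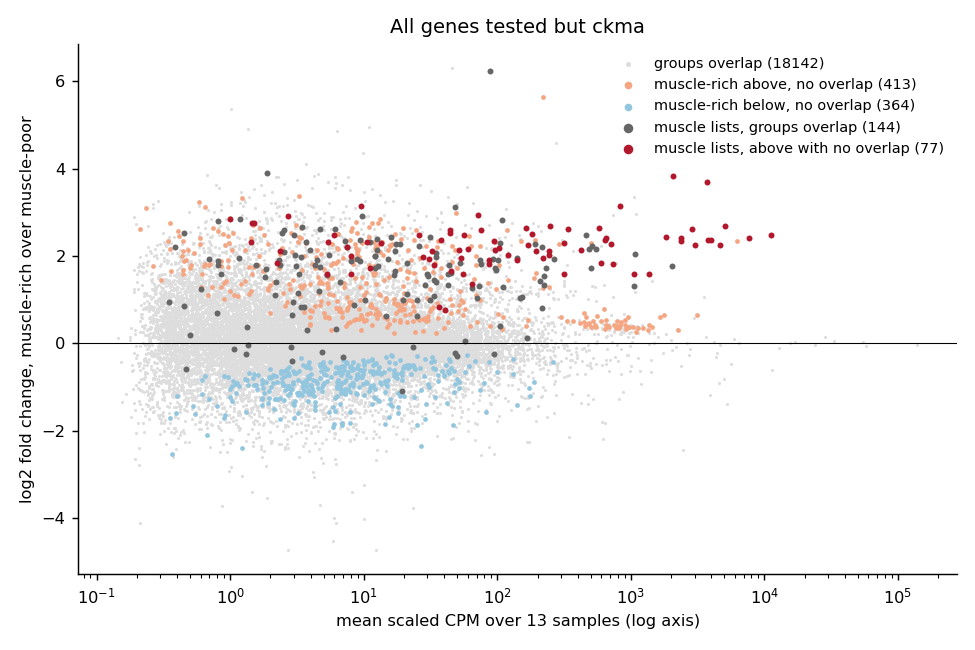
Log2 fold change of muscle-rich over muscle-poor samples (y axis) against the mean level over 13 samples in scaled CPM (x axis, log axis), 1 point per gene, without ckma. Of the 221 muscle-list genes, 77 were higher with no overlap and none was lower, beside 2.56% and 1.9% of all genes. The 413 other higher genes include a band of abundant genes with small fold changes.

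The muscle lists were higher as a body. Of 221 tested genes, 208 had a log2 fold change above 0 and 184 exceeded 1. With no overlap, 77 of the 221 were higher and 0 lower, beside 2.56% and 1.9% of all genes. With CPM of the counts outside the mitochondrial protein genes 62 were higher and 2, both of the dystrophin complex, were lower. Of all genes, 1.1% were higher and 6.01% lower with that scaling. With TMM the muscle lists had a median of 1.93 and a range of −1.10 to 6.24, beside the median of 0.01 over all genes. Within genotypes, the median of the list was 1.46 in HOM, 2.16 in HET and 1.91 in WT samples, as log2 ratios of mean scaled CPM.

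All 17 tested fast thick filament genes and all 21 fast thin filament genes exceeded a log2 fold change of 1, with medians of 2.496 and 2.386. Of these, 10 and 13 were higher with no overlap, beside 2.56% of all genes. Their summed level was 50470 to 102000 scaled CPM in muscle-rich samples (median 65490) and 3340 to 18700 in muscle-poor samples (median 14210), so the lowest muscle-rich sample lay far above the highest muscle-poor one. Divided by ckma in the same sample, this sum was 9.73 to 18.4 in muscle-rich and 10.04 to 17.2 in muscle-poor samples, and the groups overlapped fully.

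The sarcomeric actin actc1b had 14433, 19248 and 27107 scaled CPM (lowest, median and highest) in muscle-rich samples, against 804, 3772 and 5540 in muscle-poor samples, a log2 fold change of 2.47 ± 0.40 (SE). The fast regulatory light chain myl11 had 9246, 11498 and 19970 scaled CPM in muscle-rich samples and 680, 2650 and 4009 in muscle-poor samples. All muscle-rich samples lay above all muscle-poor ones for both genes, and HET3 lay between the groups with 9357 for actc1b and 7865 for myl11. The fast myosin heavy chain myhc4 differed by 2.69 ± 0.49, the essential light chain myl1 (ENSDARG00000017441) by 2.36 ± 0.39 and the myosin-binding protein mybpc2b by 2.41 ± 0.38. Of the thin filament regulators, tropomyosin tpma differed by 2.62 ± 0.46, the calcium sensor tnnc2 by 2.44 ± 0.40 and troponin T tnnt3 (ENSDARG00000068457) by 2.35 ± 0.37. Fish carry near-identical copies of myosin and actin genes, and reads of such copies may be divided between them.

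Genes of calcium handling followed the filaments, and the parvalbumins differed among themselves. Of 35 tested genes of excitation-contraction coupling and calcium, 34 were above 0, with a median of 2.11. With no overlap, 18 of the 35 were higher, beside 2.56% of all genes. The fast calcium pump atp2a1l had 2834, 4241 and 4716 scaled CPM in muscle-rich samples against 183, 755 and 1273 in muscle-poor samples, a log2 fold change of 2.42 ± 0.39. The parvalbumins, which bind calcium as fast fibres relax, fell into pairs. For pvalb4 the difference was 2.26 ± 0.38 and for pvalb3 2.25 ± 0.42. For pvalb2 it was 3.68 ± 0.54 and for pvalb1 3.83 ± 0.62. The exception of the list was hrc, which in mammals encodes a calcium-binding protein of the sarcoplasmic reticulum, at −1.10 ± 0.40, with 5.94 to 20.6 scaled CPM in muscle-rich samples and 8.999 to 47.4 in muscle-poor samples.

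Energy supply followed. The second cytosolic muscle creatine kinase, ckmb, had 4351, 6769 and 7149 scaled CPM in muscle-rich samples and 407, 1202 and 1918 in muscle-poor samples, with no overlap. Its ratio to ckma was 1.004 to 1.44 in muscle-rich and 1.15 to 1.46 in muscle-poor samples. Of 38 tested genes of creatine, glycogen and glycolysis, 36 were above 0, with a median of 1.66. With no overlap, 14 of the 38 were higher, beside 2.56% of all genes. The glycolytic enzymes aldoa (ENSDARG00000011665), gapdh and eno3 differed by 1.58 ± 0.30, 1.77 ± 0.37 and 1.32 ± 0.31. The groups overlapped for gapdh and eno3, and the muscle-rich HET2 had 1314 scaled CPM of gapdh, below the highest muscle-poor value of 1365. A copy of glucose-6-phosphate isomerase, gpi (ENSDARG00000012987), was at −0.25 ± 0.19, with 66.9 to 136 scaled CPM in muscle-rich and 88.1 to 121 in muscle-poor samples. Another gpi copy (ENSDARG00000103826) was at 1.62.

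The frame of the fibre was described by the Z-disc and dystrophin lists. The 38 tested genes of the Z-disc, the M-band and titin had a median of 1.96, with 37 above 0. With no overlap, 12 of the 38 were higher, beside 2.56% of all genes. The titin gene ENSDARG00000028213, whose protein acts as a spring of the sarcomere, had 1121, 1917 and 3135 scaled CPM in muscle-rich samples against 306, 658 and 1112 in muscle-poor samples, a log2 fold change of 1.58 ± 0.36. The ratio of both ttn genes to ckma was 0.320 to 0.571 in muscle-rich and 0.531 to 1.38 in muscle-poor samples. The Z-disc gene ldb3b differed by 2.29 ± 0.34 and the M-band gene myom2 by 1.95 ± 0.43. In the dystrophin complex, which ties the fibre to the matrix around it, 15 of 21 genes were above 0, with a median of 1.41. With no overlap, 4 of the 21 were higher, beside 2.56% of all genes. With CPM of the counts outside the mitochondrial protein genes 2 were higher and 2 lower, beside 1.1% and 6.01% of all genes. The caveolin cav3 (2.37 ± 0.48) and the dystrobrevin dtnba (1.59 ± 0.31) were higher with no overlap, while the utrophin utrn stood at −0.29 ± 0.13, the dystroglycan dag1 at −0.22 ± 0.25 and fktn, which in mammals acts in the glycosylation of dystroglycan, at −0.40 ± 0.20. Utrophin and dystroglycan are used in many cell types outside muscle.

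Genes of innervation and muscle control were low in both groups. All 10 tested genes of the neuromuscular junction were above 0, with a median of 1.79. Of these, 1 (10%) was higher with no overlap, beside 2.56% of all genes. That gene, chrne, encodes a subunit of the adult acetylcholine receptor and had 12.2, 17.9 and 37.6 scaled CPM in muscle-rich samples against 1.7997, 4.87 and 7.45 in muscle-poor samples. The receptor subunit chrna1 (1.84 ± 0.46) and the acetylcholinesterase ache (1.58 ± 0.36) overlapped between the groups. Of 23 myogenic regulators and satellite cell genes 21 were above 0, with a median of 1.59, and 4 (17.4%) were higher with no overlap. The transcription factor mef2d had 39.1 to 73.4 scaled CPM in muscle-rich and 20.3 to 37.3 in muscle-poor samples (0.75 ± 0.19). The growth inhibitor mstnb spread from 2.79 to 86.8 scaled CPM within the muscle-rich group and from 3.14 to 9.19 in the muscle-poor group. A copy of pax7 (ENSDARG00000070818), a satellite cell gene that pigment cell precursors also use, was at −0.30 ± 0.40. Another pax7 copy (ENSDARG00000100398) was at 0.65.

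Within the muscle-rich group the slow fibre genes spread more widely than the fast filament genes, with nearly the same order of samples as ckma in scaled CPM. Of 18 tested genes of slow fibres, 1 (5.6%) was higher with no overlap, beside 2.56% of all genes. With a median of 1.76, 17 of the 18 were above 0. Their summed level was 15383 scaled CPM in HET5, 5127 in HET4, 5088 in WT5, 2458 in HOM2, 2435 in WT2 and 391 in HET2, the muscle-rich samples. It was 2701 in WT1, 2603 in HOM3, 966 in HOM1, 785 in WT3, 748 in WT4 and 643 in HET1, the muscle-poor samples. HET2, with 60910 scaled CPM of fast filament genes, thus had the lowest slow sum of all 13 samples, and the muscle-poor WT1 and HOM3 lay above the muscle-rich HOM2 and WT2. Per unit of ckma the slow sum spanned 0.105 in HET2 to 2.37 in HET5 within the muscle-rich group and 0.500 to 2.80 in the muscle-poor group.

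The single genes behaved alike. Myoglobin, mb, had 54.5, 446 and 2683 scaled CPM in muscle-rich samples and 59.4, 89.5 and 254 in muscle-poor samples (2.47 ± 0.81). The tropomyosin tpm2 had 1966 scaled CPM in HET5 and 44.1 in HET2, against 77.7 to 361 in the muscle-poor samples. The slow calcium pump atp2a2a and the myosin light chain myl10 also had their highest value in HET5 and their lowest in HET2 within the muscle-rich group, at 2874 and 56.7 scaled CPM for atp2a2a and 2686 and 61.4 for myl10. The slow list's median was 0.22 within HOM, 3.10 within HET and 1.37 within WT samples, and without HET5 it was 1.09.

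Respiratory genes ordered the samples in a similar way. Nuclear genes of oxidative phosphorylation were above 0 in 84 of 87 cases with a median of 1.15, and 2 were higher with no overlap, a share no larger than the 2.56% of all genes. With CPM of total counts or of the counts outside the mitochondrial protein genes 0 were without overlap. Their summed level was 29262 scaled CPM in HET5, 20095 in HET4, 17025 in WT5, 10701 in HOM2, 9936 in WT2 and 7030 in HET2, against 5127 to 9456 in the muscle-poor samples, which is the order of the slow sums within the muscle-rich group. Only HET2 lay within the range of the muscle-poor samples. The ATP synthase subunit atp5f1b differed by 1.18 ± 0.36 and the cytochrome oxidase subunit cox4i1 by 1.201 ± 0.33. Genes of the TCA cycle and fatty acid oxidation had a median of 0.97 with 34 of 35 above 0 and 0 without overlap, and the mitochondrial isocitrate dehydrogenase idh2 differed by 1.83 ± 0.46. The 13 protein genes of the mitochondrial genome had a median of 0.02, with summed levels of 199420 to 604060 scaled CPM in muscle-rich and 138680 to 733070 in muscle-poor samples, a median whose sign changed under 10 of 26 alternatives.

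A second set of genes divided the muscle-rich samples in another order. The myosin heavy chain myha had the largest fold change of the muscle lists, 6.24 ± 0.97, with 476 scaled CPM in WT5, 273 in HOM2, 246 in HET2, 62.9 in HET5, 61.8 in WT2 and 4.02 in HET4, the muscle-rich samples. The muscle-poor samples had 0.9998 to 4.88 scaled CPM and HET3 had 1.502, so HET4 overlapped with the muscle-poor group while the other 5 lay far above it. The summed level of pvalb1 and pvalb2 followed the same order at its ends, with 24420 scaled CPM in WT5, 15120 in HET2, 13230 in HOM2, 6186 in WT2, 6180 in HET5 and 2711 in HET4. It was 335 to 1322 in muscle-poor samples and 1997 in HET3. Divided by ckma, this sum was 0.523 to 4.41 in muscle-rich and 0.580 to 1.51 in muscle-poor samples. For pvalb3 and pvalb4 the same ratio was 1.88 to 3.54 in muscle-rich and 2.14 to 3.88 in muscle-poor samples.

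The heavy chain myhz1.1 differed by 3.90 ± 0.62 at a low level, 0.412 to 6.96 scaled CPM in muscle-rich and 0.116 to 0.476 in muscle-poor samples, with its lowest muscle-rich value again in HET4. The troponin I copy tnni2 (ENSDARG00000029995) differed by 3.15 ± 0.40, with 961 to 2556 scaled CPM in muscle-rich and 50.7 to 340 in muscle-poor samples. HET3 had 148 scaled CPM of this tnni2, inside the muscle-poor range, although its fast filament sum of 39670 lay above every muscle-poor sample.

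**Figure D3:**
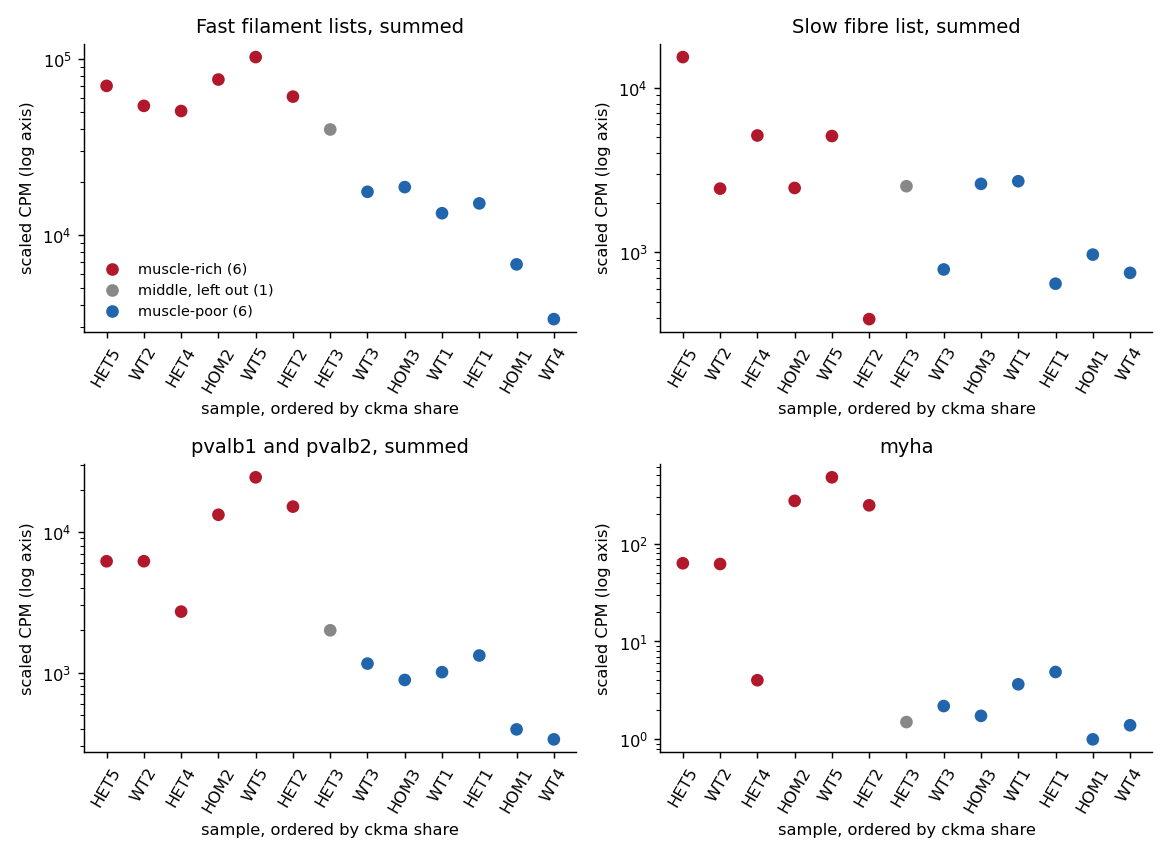
Scaled CPM (y axes, log axes) of the fast filament lists, the slow fibre list, pvalb1 with pvalb2, and myha, 1 point per sample in the order of the ckma share. The fast filament sum separates the groups, at 50470 to 102000 in muscle-rich and 3340 to 18700 in muscle-poor samples, while the slow sum is lowest in the muscle-rich HET2 and myha is low in the muscle-rich HET4.

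Outside the muscle lists, the 10 largest log2 fold changes among genes with no overlap were mostly of genes at low levels. The kelch gene klhl31 (2.84 ± 0.53) and the deaminase relative apobec2 (2.76 ± 0.48) are known from striated muscle. For klhl31 the values were 11.6, 19.8 and 56.3 scaled CPM in muscle-rich and 0.929, 3.04 and 8.33 in muscle-poor samples. The synaptic and muscle scaffold gene homer1 differed by 2.77 ± 0.51, and a tecr copy (ENSDARG00000101585), named for an enzyme of fatty acid elongation, by 2.75 ± 0.44. Another tecr copy (ENSDARG00000025904) was at 0.003. The ankyrin repeat gene ankrd29 differed by 3.37 ± 0.46. The mitochondrial carrier slc25a29 (3.32 ± 0.53) and tecrl2b (2.88 ± 0.71) had at most 4.85 and 3.44 scaled CPM in any muscle-rich sample. The abundant nme2b.2, a nucleoside diphosphate kinase named here after its values were seen, had 7139, 11371 and 15581 scaled CPM in muscle-rich samples against 723, 2600 and 2829 in muscle-poor samples (2.35 ± 0.35).

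Smooth muscle genes were above 0 in 12 of 15 cases with a median of 1.38, or 0.95 without WT5. Of the 15, 4 were higher with no overlap, beside 2.56% of all genes. With CPM of the counts outside the mitochondrial protein genes 0 were without overlap, beside 1.1% of all genes higher. With CPM of total counts 2 were higher with no overlap, beside 1.18% of all genes. The list's median was 1.34 within HOM, 0.41 within HET and 1.53 within WT samples. The smooth muscle actin acta2 had 13.2, 40.4 and 2605 scaled CPM in muscle-rich samples and 7.53, 8.9985 and 11.2 in muscle-poor samples, a log2 fold change of 5.65 ± 1.44. The highest value was WT5, and without it the fold change was 1.83. For the tagln copy ENSDARG00000045408 it was 2.99 ± 0.77 with WT5 and 1.44 without. The more abundant tagln copy (ENSDARG00000033466) stood at −0.11 ± 0.42. Of 15 genes on the cardiac list 6 passed the filter, with 0 without overlap and summed levels of 1.82 to 53.4 scaled CPM in muscle-rich and 3.09 to 22.1 in muscle-poor samples.

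All 33 nerve and Schwann cell genes were above 0, with a median of 1.19. Of the 33, 5 were higher with no overlap, beside 2.56% of all genes. The list's summed level was 459 to 936 scaled CPM in muscle-rich and 236 to 465 in muscle-poor samples, and only HET2 and HOM3 overlapped. The myelin gene mpz had 48.9, 116 and 168 scaled CPM in muscle-rich samples and 9.75, 23.2 and 48.1 in muscle-poor samples (1.998 ± 0.40), and the myelin gene pmp22 differed by 1.19 ± 0.20, both without overlap. All 29 endothelial genes were above 0 with a median of 0.97, but 0 were without overlap. The receptor kdrl differed by 1.62 ± 0.38 and the cadherin cdh5 by 1.602 ± 0.46, and the muscle-rich WT2 and HET2 lay within the range of the muscle-poor samples for the endothelial sum. Within genotypes the nerve list's median was 0.85 in HOM, 0.36 in HET and 1.34 in WT samples, and the endothelial one was 0.67 in HOM, 0.97 in HET and 1.01 in WT samples. With CPM of the counts outside the mitochondrial protein genes, 29 of 33 nerve genes and 25 of 29 endothelial genes were above 0. In that setting 1 nerve gene was higher with no overlap, beside 1.1% of all genes.

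The ribosome stood out by evenness. All 79 genes of the cytosolic ribosome were above 0, with a small median of 0.37. Of the 79, 39 were higher with no overlap, beside 2.56% of all genes. The summed level was 62776 to 82883 scaled CPM in muscle-rich samples, against 49828 to 59152 in muscle-poor samples, and HET3 had 57848, within the muscle-poor range. The gene rps3a, for example, had 1482, 1582 and 1833 scaled CPM in muscle-rich and 1141, 1258 and 1427 in muscle-poor samples. With CPM of the counts outside the mitochondrial protein genes, the median was 0.08, 60 of the 79 genes were above 0 and 1 was without overlap, while the median of all genes moved to −0.27. With CPM of total counts the median was 0.15 and 1 gene was without overlap. With DESeq2 size factors the median was 0.36 and 27 genes were without overlap. In these settings, in the same order, 1.1%, 1.18% and 2.5% of all genes were higher with no overlap.

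Of 37 genes of scale osteoblasts and osteoclasts, the cells that build and resorb the bony scales, 35 were below 0 and 22 lay under −1, with a median of −1.17, yet only 1 was lower with no overlap, a share near the 1.9% of all genes. Their summed level was 792 to 2087 scaled CPM in muscle-rich and 1537 to 10631 in muscle-poor samples, and the overlap came from WT4, the muscle-poor sample with the least ckma, while the other 5 had at least 4242. The collagen col10a1 (ENSDARG00000101535), used by scale and bone cells of fish, had 223 to 1379 scaled CPM in muscle-rich samples and 773 to 8042 in muscle-poor samples, a log2 fold change of −2.45 ± 0.60. The mineralisation gene scpp7 stood at −1.37 ± 0.45. The list's median was −2.10 within HOM, −1.16 within HET and −0.65 within WT samples.

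Keratinocyte genes were below 0 in 31 of 42 cases with a median of −0.47. Of the 42, 2 were lower with no overlap, a share above the 1.9% of all genes. With CPM of total counts 0 of them were lower with no overlap, beside 1.06% of all genes. With CPM of the counts outside the mitochondrial protein genes 2 were lower, a share below the 6.01% of all genes. The keratin krt5 had 4010, 10383 and 12857 scaled CPM in muscle-rich samples and 9970, 12854 and 20516 in muscle-poor samples (−0.60 ± 0.30), and both groups hold abundant keratin, as the skin label implies. The keratinocyte median was −0.41 within HOM, 0.02 within HET and −0.98 within WT samples. The abundant dermal collagens stood at −1.39 ± 0.45 for col1a1, −1.18 ± 0.48 for col1a2 and −0.90 ± 0.54 for col1a1a. In the same order they stood at −2.76, −2.59 and −2.43 within HOM and −1.34, −1.31 and −1.25 within HET samples. Within WT samples they stood at −0.28, 0.06 and 0.55. The 59 dermal matrix genes had a median of 0.10, which changed sign under 5 alternatives, and 0 were without overlap. Their summed level was 7586 to 26216 scaled CPM in muscle-rich and 7133 to 41233 in muscle-poor samples.

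The genes with the most negative fold changes outside the muscle lists and no overlap included the vasopressin receptor avpr1a (ENSDARG00000045788, −2.40 ± 0.39), the collagen-processing enhancer pcolceb (−1.92 ± 0.30), the lipid flippase atp8b1 (−1.87 ± 0.29), the carnitine palmitoyltransferase cpt1a2b (−1.87 ± 0.31), the cadherin cdh26.1 (−1.86 ± 0.31), fam20a (−1.84 ± 0.30), needed for enamel in mammals, and the nitric oxide synthase nos1 (−1.83 ± 0.46). Another avpr1a copy (ENSDARG00000077083) was at 0.53. The cadherin cdh26.1 had 8.44, 21.5 and 28.5 scaled CPM in muscle-rich samples and 42.1, 76.6 and 108 in muscle-poor samples.

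**Figure D4:**
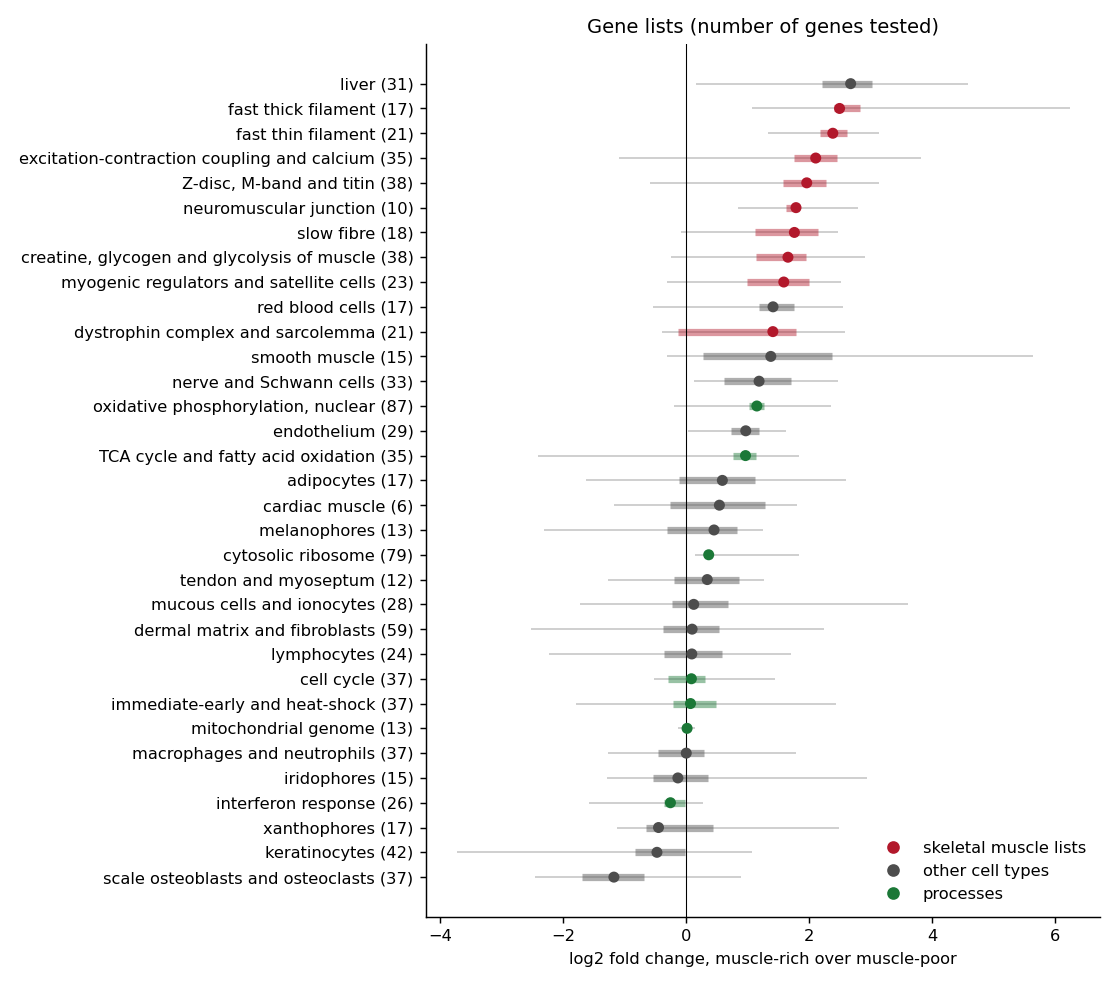
Log2 fold change of muscle-rich over muscle-poor samples (x axis) for 33 gene lists without ckma, with the number of genes tested. Points are medians, thick bars run from the first to the third quartile and thin lines from the lowest to the highest gene. The fast filament lists lie near 2.4, scale cells at −1.17, and the liver list at 2.68 rests on the sample WT5.

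Most of the remaining lists of cell types and processes showed little or rested on single samples. All 31 tested liver genes were above 0 with a median of 2.68, and 0 were without overlap. Without WT5 the median was −0.46, and without both WT5 and the muscle-poor WT1 it was 1.16. Within genotypes it was −1.55 in HOM, 1.58 in HET and 3.48 in WT samples. The transferrin tfa, a plasma protein made by the liver, had 35.6, 170 and 11694 scaled CPM in muscle-rich and 9.28, 53.6 and 918 in muscle-poor samples. Its log2 fold change was 3.35 ± 1.59 with WT5 and −0.45 without. Red blood cell genes were above 0 in 14 of 17 cases with a median of 1.41 and 0 without overlap. The median was 2.81 without the muscle-poor HOM3 and 0.46 without the muscle-rich WT2. Within genotypes it was −0.51 in HOM, 1.81 in HET and 3.53 in WT samples. Medians with 0 to 3 genes without overlap in either direction were 0.00 for macrophages and neutrophils, 0.09 for lymphocytes, 0.45 for melanophores, −0.45 for xanthophores, −0.13 for iridophores, 0.12 for mucous cells and ionocytes, 0.34 for tendon and myoseptum, 0.59 for adipocytes, 0.09 for the cell cycle, 0.07 for immediate-early and heat-shock genes and −0.25 for the interferon response. Of these, the medians of macrophages, lymphocytes, iridophores, mucous cells and tendon changed sign under at least 1 alternative. So did those of adipocytes, the cell cycle, immediate-early genes and the interferon response. Of 17 xanthophore genes, 1 was higher and 2 were lower with no overlap, beside 2.56% and 1.9% of all genes. The xanthophore median was −1.69 within HOM, −0.18 within HET and 0.51 within WT samples.

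**Figure D5:**
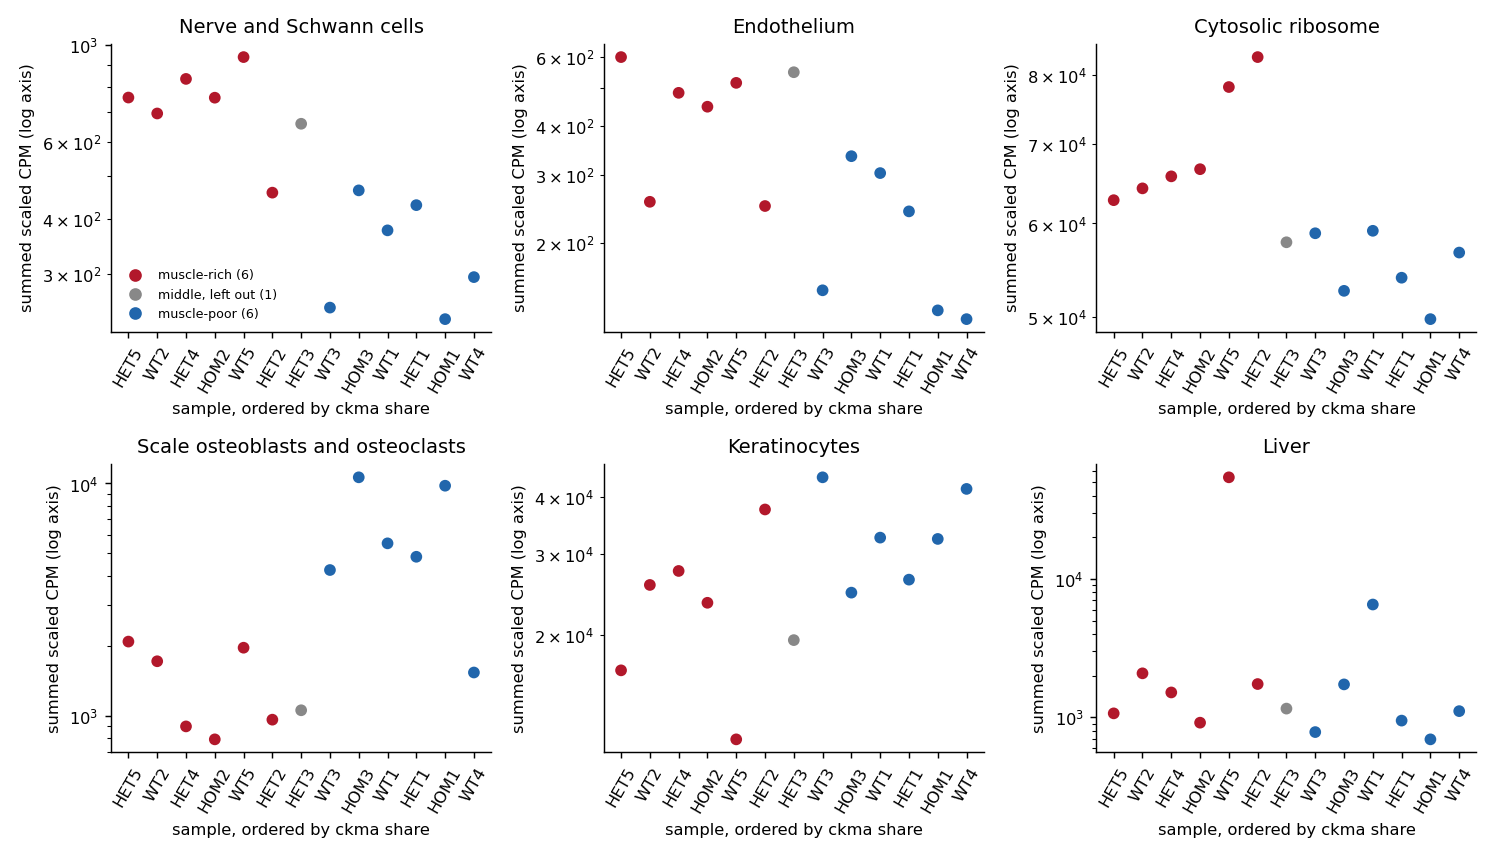
Summed scaled CPM (y axes, log axes) of 6 lists, 1 point per sample in the order of the ckma share. Ribosomal sums were 62776 to 82883 in muscle-rich and 49828 to 59152 in muscle-poor samples with no overlap, scale cell sums were higher in 5 of 6 muscle-poor samples, and WT5 alone reached 54202 for liver.

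The genotypes, which the ranking did not use, did not separate by muscle content. The share of ckma was 0.122% to 0.723% in HOM, 0.169% to 0.929% in HET and 0.0533% to 0.783% in WT samples, with full overlap of HOM and WT. In 2-sided exact permutation tests of the mean log2 share, HOM differed from WT by 0.01 (n = 3 and 5, p = 0.964, adjusted p = 0.964), HET from WT by 0.94 (n = 5 and 5, p = 0.341, adjusted p = 0.512) and HOM from HET by −0.93 (n = 3 and 5, p = 0.321, adjusted p = 0.512). The smallest p this test allows is 0.00794 with 5 against 5 samples, and it is larger with 3 against 5. Leaving out 1 sample moved HET over WT between 0.36 (without WT4) and 1.34 (without HET1), and HOM over HET between −1.64 (without HOM2) and −0.35 (without HOM1). The HOM and WT difference changed direction when HOM2 (−0.70), WT4 (−0.57) or WT1 (−0.14) was left out.

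Across 19141 genes, edgeR's quasi-likelihood test with Benjamini-Hochberg adjustment called 0 (0%) in each of the 3 genotype contrasts. The unadjusted p was under 0.05 for 522 (HOM over WT), 1052 (HET over WT) and 525 (HOM over HET) genes, and among 222 muscle-list genes with ckma for 1, 2 and 1. About 5% of genes fall under this threshold by chance when none differs. DESeq2's Wald test called 36, 123 and 1 of the 19141 genes, of which 0 were in the muscle lists. With so few calls over all genes, 0 among 222 says little about the muscle lists. The median log2 fold change of the muscle lists was −0.21 for HOM over WT, 0.36 for HET over WT and −0.59 for HOM over HET, and that of ckma was −0.21 ± 0.90, 0.55 ± 0.77 and −0.76 ± 0.92. No difference in muscle content between genotypes was detected, and these errors are wide.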

How the data were processed

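Per the labels, libraries were made with a TruSeq RNA kit, which selects polyadenylated RNA and does not mark strand, so reads of overlapping genes cannot be told apart. Counts of reads per gene (32105 genes, 13 samples) were deposited with a second table labelled RPKM. The submitters' processing notes name bcl2fastq 1.8.4, STAR 2.4.1d, featureCounts 1.4.6-p4 and the build GRCz10. The deposited RPKM values were handled as a score and served only to recover gene lengths, because their library totals run in turn down the columns. With each column's own total, the implied length of a gene varied between samples by a median of 31.0%, and with the totals in turn by 0.00250%. Symbols came from a table of gene names that matched 26269 IDs (81.8%). Some of its symbols are shared by copies, which are given with their ID.

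Counts were analysed with edgeR 4.0.16 in R 4.3.3. Genes were filtered with filterByExpr by genotype (19141 kept) and scaled by TMM over the 13 samples. A quasi-likelihood fit (glmQLFit, robust) gave the log2 fold changes of the 12 samples, with SE taken from the F statistic. List means and the search for samples apart used log2(scaled CPM + 0.1). Genotypes were compared with glmQLFTest over all 13 samples and a threshold of 0.05, and ckma shares with exact permutation tests in scipy. The scripts were tested on simulated data.

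The groups and the 33 gene lists were chosen with earlier results of these data known. Genes were named by a rule: ckma, up to 4 of the 4 most abundant members of each list, the 10 largest and 10 smallest fold changes outside the muscle lists with no overlap and a mean of at least 1 CPM, and the 5 largest and 5 smallest in the muscle lists. The genes nme2b.2, ptgdsb.1 and tert were added after their values were seen. So were the further copies of gpi, pax7, avpr1a and tecr. Alternatives were other scalings, filters, group sizes, rankings, genotype as a covariate, DESeq2 1.42.0, leaving out each sample, and, chosen after seeing the data, leaving out WT1 and WT5 together. Depth limits the low genes, and the counts carry no molecular identifiers.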

Additional observations from a re-analysis of the deposited data

Results flagged for a closer look

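In 244 groups of samples examined, 9 single samples lay far from the rest of their group on the log2 scale. Chance gives about 5% of independent groups. These groups are not independent, because list sums were examined beside their own members, so the 9 cannot be weighed against that share. In the muscle-rich group, WT5 was apart for the smooth muscle sum (3583 scaled CPM, next 737), the liver sum (54202, next 2078), acta2 (2605, next 55.7), the tagln copy ENSDARG00000045408 (392, next 42.8) and tfa (11694, next 274). HET2 was apart for gapdh with 1314 scaled CPM, where the next lowest muscle-rich sample had 2892, and HET4 for myhz1.1 with 0.412, where the next lowest had 2.55. In the muscle-poor group, HOM3 was apart for the red blood cell sum (2942 scaled CPM, next 362) and for the globin hbe1 (ENSDARG00000089087; 1503, next 173). HOM3 also had the lowest total count, 15709310, and the part of depth in these values was not tested.

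Among 121 values compared between genotypes, 1 differed in direction, the summed iridophore list. Its log2 ratio of muscle-rich over muscle-poor samples was −0.66 within HOM (1 against 2 samples) and 0.74 within WT (2 against 3), with every sample on its own side. The WT ratio rests largely on WT5, with 357 scaled CPM, where the muscle-rich WT2 had 170 and the muscle-poor WT3 had 164. The difference was not tested.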

How the results depend on the processing

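The median of the muscle lists kept its direction under all 26 alternatives (1.62 to 2.36), and no named gene called without overlap changed sign. The other rankings gave the same groups, so they could not change these values. The genes higher and lower without overlap numbered 224 and 203 with CPM of total counts, 209 and 1151 with CPM of counts outside the mitochondrial protein genes, 1637 and 1081 with the 4 highest against the 4 lowest samples, and 219 and 133 with HET3 added to the muscle-poor group. Fewer or more samples change the count by construction, and for the scalings the cause was not tested. When a sample was left out, which can only add calls under the same scaling, the counts ran from 505 to 1043 higher and from 390 to 658 lower. Without WT1 and WT5 there were 624 higher and 579 lower.

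DESeq2 called 36 (HOM against WT), 123 (HET against WT) and 1 (HOM against HET) genes where edgeR called 0, and the cause was not tested. With every other alternative edgeR called 0. The ckma difference of HOM against WT turned negative with scaled CPM (−0.03435), ckma over total counts (−0.25) and the linear share (−0.03931 percentage points), and ran from −0.70 to 0.59 when samples were left out. No paired analysis was possible because replicate numbers follow the order of records and pair no samples. Genotypes are unevenly spread over the groups, and no test was made between groups cut from ckma itself.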
